A study of Mus musculus with 12 samples.

Results

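The extracellular matrix of calf muscle was followed through 35 collagens, matrix proteins and matrix modifying genes in heat tolerant (TOL) and heat intolerant (INT) mice. The 35 genes were chosen by name, with older names such as Ctgf for Ccn2 also looked up. Of the 35, 32 had a probe under their name on the array and 28 had a probe that was detected on at least 6 of the 12 arrays, out of 9034 named genes that met the same requirement. Col6a3, Col12a1 and Fbn1 had no probe of their name, and Col5a2, Lamb1, Postn and Tnmd had probes that were detected on at most 2 arrays and were not tested. Tnmd, a marker of mature tendon, was detected on 1 array, and no probe of Postn or Lamb1 was detected on any array.

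Total RNA of gastrocnemius muscle was measured on 12 Illumina MouseWG-6 v2 arrays, 1 for each male C57BL/6J mouse, with 6 TOL and 6 INT mice. All 12 mice were 10 to 12 weeks old, weighed 22 to 26 g, carried an implanted temperature transponder and had been heated in a chamber brought to 39.5°C for at most 3 h, and the study took muscle the day after. TOL and INT were assigned from body temperature in that heat test, so the labels stand for a response and not for a genotype or a treatment, and mice without heat were not on these arrays. Levels are given as normalized log2 signals, so that a difference of 1 is a doubling of that signal, and differences are TOL minus INT. An offset of 16 is part of each signal and shrinks the differences of dim probes, such as those of Col3a1, Col14a1 and Timp1. The level of one probe cannot be set against that of another, because probes differ in brightness. Between 15179 and 17017 probes were detected per array, and the array of TOL mouse 11 had the lowest mean correlation with the others (0.973, against 0.981 to 0.987 for the other 11 arrays). In whole muscle, fewer cells of a type and less RNA per cell cannot be told apart.

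Skeletal muscle fibres lie in layers of matrix made mainly by fibroblasts. Type I and type III collagens form the load bearing fibrils of the endomysium, perimysium and tendon, while type IV collagen and laminins build the sheet of basement membrane around each fibre and vessel. Type VI collagen links both layers, small leucine-rich proteoglycans such as decorin coat the fibrils and set their spacing, and chaperones and oxidases inside and outside the cell fold and crosslink the chains. Serpinh1 encodes Hsp47, the collagen chaperone of the endoplasmic reticulum, whose gene is induced by heat shock in cultured cells.

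No matrix gene passed the test between TOL and INT mice. At an adjusted p under 0.05 from limma, 0 of the 28 tested members were called, against 0.542% of all genes tested. At an unadjusted p of 0.05 or less, 1 member was higher in TOL mice (Dcn), against 3.89% of all genes, and 0 were lower, against 4.53% of all genes. On average 19 members were higher and 9 lower in TOL mice, with a median log2 fold change of 0.09 over the members and -0.003 over all genes tested. In every one of the 28 genes the values of the 2 groups overlapped. The median over the members was -0.002 without INT mouse 9, with 14 genes higher and 14 lower, and 0.18 without INT mouse 4, with 23 higher and 5 lower. Without INT mouse 4, 4 members (Col5a1, Col6a1, Col6a2 and Dcn) had an unadjusted p of at most 0.05 and were higher, against 3.82% of all genes, 1 was lower (Ccn2), against 4.18%, and 0 were called.

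**Figure D1:**
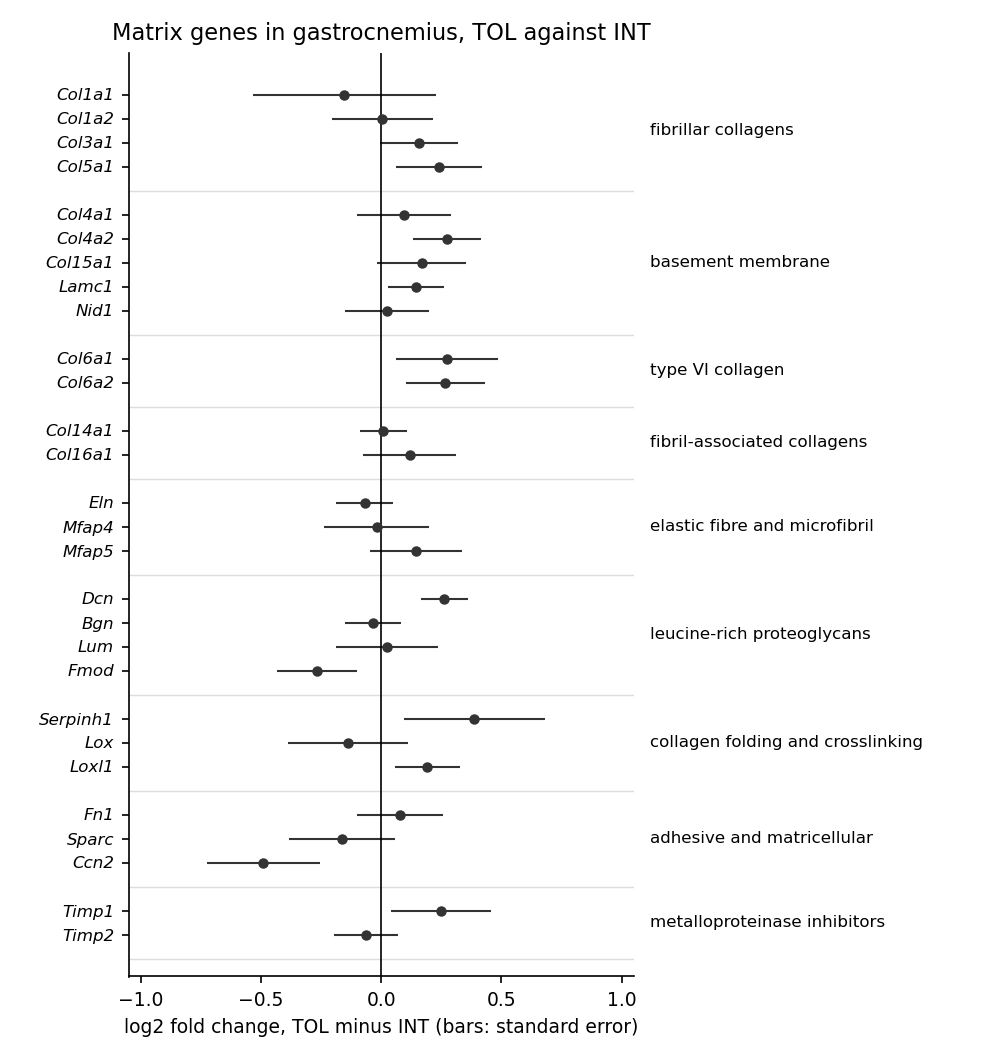
Log2 fold change of the 28 tested matrix genes, TOL minus INT, as points with the standard error as bars, grouped by role. Most bars cross or approach 0, with Dcn to the right, Ccn2 to the left and the widest bars at Col1a1 and Serpinh1.

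The fibrillar collagens were at like levels in the 2 groups and spread widely from mouse to mouse. Col1a1, the major chain of type I collagen, had a normalized log2 signal of 6.94 at the lowest, 7.93 at the median and 9.002 at the highest in TOL mice, and 7.20, 7.86 and 9.48 in INT mice. Its log2 fold change was -0.15 (SE 0.38, adjusted p = 0.936 from limma). The SD of Col1a1 within the labels was 0.84, above that of 99.6% of all probes tested, and its 12 values covered 2.54 log2 units. Both groups therefore held mice with low and with high Col1a1, with TOL mouse 4 and INT mouse 4 the highest and TOL mouse 7 and INT mouse 9 the lowest of their groups. With single mice left out, the log2 fold change of Col1a1 ran from -0.37 without TOL mouse 4 to 0.12 without INT mouse 4.

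Col1a2, the partner chain in the type I triple helix, ran from 5.47 over a median of 5.86 to 6.47 in TOL mice and from 5.33 over 5.87 to 6.69 in INT mice. Its log2 fold change was 0.004 (SE 0.21, adjusted p = 0.997 from limma). Col3a1, the type III collagen of fine reticular fibrils, had 4.83, 5.24 and 5.44 in TOL mice and 4.41, 5.12 and 5.54 in INT mice, with a log2 fold change of 0.16 (SE 0.16, adjusted p = 0.810). Col5a1, a minor fibril component that sets fibril diameter, had 6.84, 6.99 and 7.32 in TOL mice and 6.06, 6.90 and 7.396 in INT mice, with a log2 fold change of 0.24 (SE 0.18, adjusted p = 0.715). All 6 TOL mice lay above the INT mean of Col5a1, and the lowest value by far was that of INT mouse 9. Without INT mouse 9 the log2 fold change was 0.09 for Col5a1 and 0.03 for Col3a1, and without INT mouse 4 it was 0.36 and 0.26. For Col1a2 and Col3a1 the INT mice took both the highest and the lowest place.

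The promoter windows of Col1a2 and Col3a1 are shown because RefSeq gives both and the levels of these genes correlated over the mice (r = 0.77). This pair was not among those tested. The windows run from 250 bases before to 50 after the start (build GRCm38.p6, 5′ to 3′ on the gene's strand). Capitals mark every match, on either strand, to TATAAA, to the CCAAT box and to the letters CAGACA. The Col1a2 window is chr6:4505368-4505667 on the plus strand and the Col3a1 window is chr1:45311288-45311587 on the plus strand.
Col1a2: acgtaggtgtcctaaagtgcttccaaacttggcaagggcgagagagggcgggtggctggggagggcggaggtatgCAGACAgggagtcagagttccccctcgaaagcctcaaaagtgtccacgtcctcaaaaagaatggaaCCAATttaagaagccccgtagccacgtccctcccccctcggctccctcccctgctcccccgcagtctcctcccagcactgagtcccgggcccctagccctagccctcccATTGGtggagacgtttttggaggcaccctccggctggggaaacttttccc
Col3a1: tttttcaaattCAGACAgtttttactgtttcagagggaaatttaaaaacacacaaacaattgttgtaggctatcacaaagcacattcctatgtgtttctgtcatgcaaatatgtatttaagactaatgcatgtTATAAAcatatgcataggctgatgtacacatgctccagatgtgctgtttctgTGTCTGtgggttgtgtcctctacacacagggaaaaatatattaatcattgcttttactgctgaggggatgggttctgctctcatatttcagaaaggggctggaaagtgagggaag
Col1a2 held CAGACA, a sequence that Smad proteins can bind, from 175 bases before the start, and 2 matches to CCAAT, 1 on each strand. Col3a1 held 1 TATAAA, from 117 bases before the start, and 2 matches to CAGACA, 1 on each strand. Windows were found for 21 of the 35 members, 23 windows in all, and 5 genes (Col1a2, Col3a1, Col5a1, Serpinh1 and Sparc) had CAGACA in a window. That is 21.7% of the member windows, and 21.0% of all 32851 windows in the table held it. CCAAT was in 43.5% of the member windows and 37.4% of all windows, and TATAAA in 8.70% and 13.6%. A heat shock element, searched as 3 alternating units of GAA and TTC set 2 bases apart, was in 0 member windows, the Serpinh1 window included, and in 0.603% of all windows. A match of letters is a description of the window and not a site shown to be used.

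The 5 tested basement membrane members were on average slightly higher in TOL mice, and none passed the test. Of 9 other basement membrane genes outside the members, 5 were higher and 4 lower, with a median log2 fold change of 0.01. Col4a1, which with Col4a2 forms the common type IV network, had a normalized log2 signal of 8.64, 9.13 and 10.10 (lowest, median and highest) in TOL mice and 8.84, 9.06 and 9.43 in INT mice. Its log2 fold change was 0.09 (SE 0.19, adjusted p = 0.916 from limma), and -0.08 without TOL mouse 11, which had the highest value of all 12. Col4a2 had 8.26, 8.67 and 9.09 in TOL mice and 8.05, 8.42 and 8.58 in INT mice, with a log2 fold change of 0.27 (SE 0.14, adjusted p = 0.563). The groups overlapped, with 4 of 6 TOL mice above the INT mean, and TOL mouse 11 was again the highest. Without TOL mouse 11 the log2 fold change of Col4a2 was 0.18. Lamc1, the gamma chain shared by most laminins, had 7.23, 7.43 and 7.59 in TOL mice and 7.08, 7.17 and 7.70 in INT mice, with a log2 fold change of 0.14 (SE 0.12, adjusted p = 0.745). Its second probe gave 0.21. Col15a1, which bridges basement membrane and fibrils, and Nid1, which joins laminin to type IV collagen, had log2 fold changes of 0.17 and 0.02. The second probe of Nid1 gave -0.06 and had an r of 0.22 to the first.

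Col4a1 and Col4a2 lie head to head, and their windows are shown because they share sequence and the 2 genes followed each other over the mice. In RefSeq the start sites are 21 bases apart on opposite strands of chromosome 8. Each start lies after the start of the other gene, so the 5′ ends overlap. The windows share 78 bases, which are in capitals and are the reverse complement of each other. All of them lie in the 50 bases after 1 start or the other. The Col4a1 window is chr8:11312777-11313076 on the minus strand and the Col4a2 window is chr8:11312555-11312854 on the plus strand, both in GRCm38.p6 and printed 5′ to 3′ on the gene's strand.
Col4a1: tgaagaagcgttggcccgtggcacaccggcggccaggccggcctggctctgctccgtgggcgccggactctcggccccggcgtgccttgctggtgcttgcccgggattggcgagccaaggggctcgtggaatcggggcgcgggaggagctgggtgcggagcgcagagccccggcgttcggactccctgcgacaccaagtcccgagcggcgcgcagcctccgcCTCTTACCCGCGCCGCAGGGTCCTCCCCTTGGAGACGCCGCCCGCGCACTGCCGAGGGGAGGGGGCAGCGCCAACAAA
Col4a2: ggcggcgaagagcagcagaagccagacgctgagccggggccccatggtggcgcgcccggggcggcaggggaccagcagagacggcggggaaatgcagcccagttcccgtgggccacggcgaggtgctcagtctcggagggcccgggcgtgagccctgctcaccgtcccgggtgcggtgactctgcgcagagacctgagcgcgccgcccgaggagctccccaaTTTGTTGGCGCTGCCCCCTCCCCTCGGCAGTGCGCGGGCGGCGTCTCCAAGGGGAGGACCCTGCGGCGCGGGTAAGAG
Over the 12 mice Pearson's r between the levels of this pair was 0.85 and Spearman's rho 0.87 (permutation p = 0.00078 and 0.00030, adjusted p = 0.0021 and 0.0018 over 11 pairs of members). Within labels r was 0.92 in the 6 TOL mice and 0.88 in the 6 INT mice (exact permutation p = 0.011 and 0.0083, two-sided). Without TOL mice 5 and 11, the 2 farthest from the median of Col4a1, r was 0.62.

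The type VI collagen chains, which tie the basement membrane to the surrounding fibrils, were higher on average in TOL mice without passing the test. Col6a1 had a normalized log2 signal of 7.86, 8.32 and 8.53 in TOL mice and 7.32, 7.89 and 8.86 in INT mice, with a log2 fold change of 0.27 (SE 0.21, adjusted p = 0.731 from limma). Col6a2 had 5.49, 5.97 and 6.11 in TOL mice and 5.28, 5.39 and 6.21 in INT mice, with a log2 fold change of 0.27 (SE 0.16, adjusted p = 0.637). In both genes 5 of 6 TOL mice lay above the INT mean, while INT mouse 4 was the highest of all 12. Without INT mouse 4 the log2 fold changes were 0.45 for Col6a1 and 0.39 for Col6a2 (unadjusted p = 0.026 and 0.015, adjusted p = 0.452 and 0.390 from limma), and without INT mouse 9, the lowest in Col6a1, they were 0.14 and 0.21 (unadjusted p = 0.50 and 0.23, adjusted p = 0.901 and 0.780). A second, dim probe of Col6a2, detected on 9 arrays, gave 0.01. Of the collagens that sit on the fibril surface, Col14a1 had a log2 fold change of 0.01 and Col16a1 of 0.12.

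Among the 4 leucine-rich proteoglycans, 2 were higher and 2 lower on average in TOL mice, and none passed the test. Dcn encodes decorin, which binds collagen fibrils and TGF-beta. It had a normalized log2 signal of 11.47, 11.63 and 11.77 (lowest, median and highest) in TOL mice and 11.18, 11.33 and 11.81 in INT mice. All 6 TOL mice were above the INT mean, and 5 of the 6 INT mice, between 11.18 and 11.39, were below every TOL mouse. The exception was INT mouse 4, at 11.81 the highest of all. The log2 fold change was 0.26, or 1.20-fold (SE 0.10, unadjusted p = 0.0155, adjusted p = 0.356 from limma), and without INT mouse 4 it was 0.35 (adjusted p = 0.0578). Of the other 3 tested probes of Dcn, 2 gave 0.29 and 0.25 and 1 gave -0.05, with an SD within labels of 1.02 against 0.18 for the probe used.

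Fmod encodes fibromodulin, a regulator of fibril assembly that is abundant in tendon. It had 6.87, 7.21 and 7.77 in TOL mice and 7.18, 7.402 and 8.13 in INT mice, with a log2 fold change of -0.27 (SE 0.17, adjusted p = 0.644 from limma). Only 1 of 6 TOL mice was above the INT mean, and that was TOL mouse 4. Without INT mouse 4 the log2 fold change of Fmod was -0.14, and its second probe gave -0.06. Bgn, the relative of decorin called biglycan, and Lum, lumican, had log2 fold changes of -0.03 and 0.02. Dcn and Lum were not found to be related over the 12 mice (r = 0.34, rho = 0.39, permutation p = 0.27 and 0.21, adjusted p = 0.50 and 0.29).

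**Figure D2:**
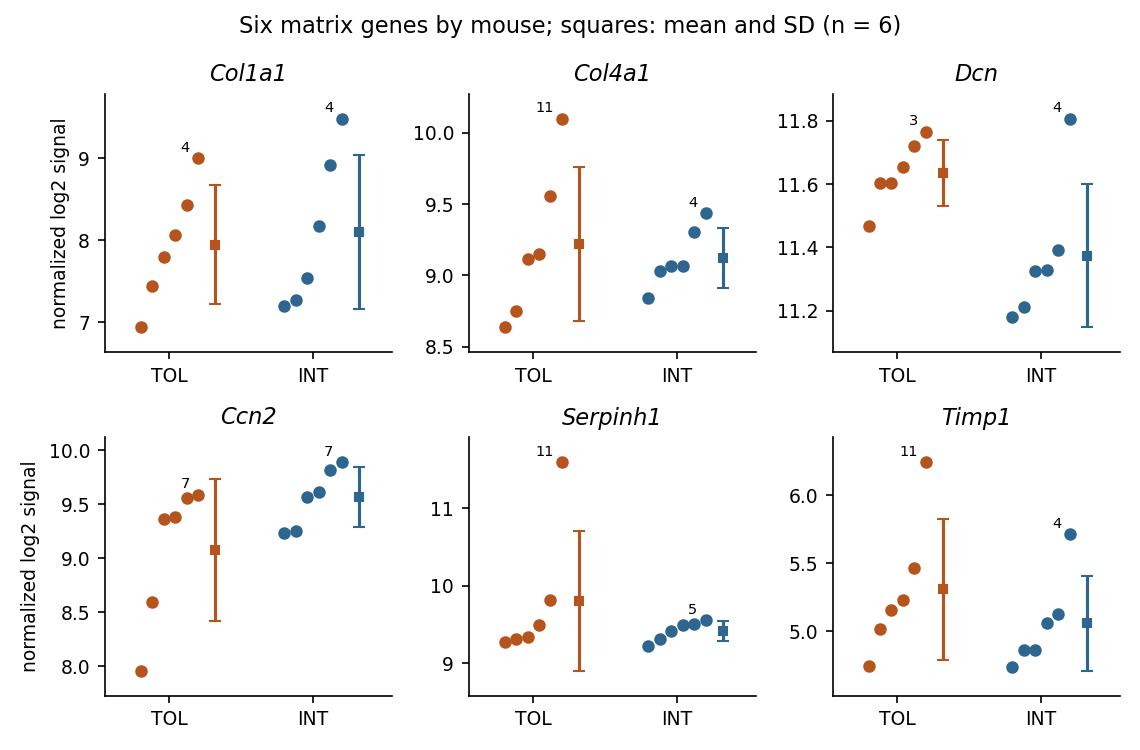
Normalized log2 signal of Col1a1, Col4a1, Dcn, Ccn2, Serpinh1 and Timp1 in each TOL and INT mouse, sorted within each group, with squares for the mean and bars for the SD (n = 6) and the number of the highest mouse beside its point. TOL mouse 11 stands above the others in Col4a1, Serpinh1 and Timp1, INT mouse 4 in Dcn, and 2 TOL mice are low in Ccn2.

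Serpinh1 was high in 1 mouse. In TOL mice it had a normalized log2 signal of 9.27 at the lowest, 9.42 at the median and 11.59 at the highest, and in INT mice 9.22, 9.45 and 9.55. The value of 11.59 belonged to TOL mouse 11, and the other 5 TOL mice, at 9.27 to 9.81, lay within or just above the INT values. The log2 fold change was 0.39 (SE 0.29, adjusted p = 0.724 from limma), and without TOL mouse 11 it was 0.03. The second probe of Serpinh1 followed the first over the 12 mice (r = 0.93) and gave a log2 fold change of 0.29. Lox, the oxidase that starts collagen and elastin crosslinks, had the third largest SD within labels after Col1a1 and Serpinh1 (0.53, 0.84 and 0.64), was also highest in TOL mouse 11 and had a log2 fold change of -0.14. Without that mouse it was -0.38 (unadjusted p = 0.048, adjusted p = 0.564). Loxl1, an oxidase that acts on elastin, had 7.49, 7.72 and 8.01 in TOL mice and 7.03, 7.59 and 7.95 in INT mice, with a log2 fold change of 0.19 (SE 0.14, adjusted p = 0.698), which was 0.09 without INT mouse 9.

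Timp1 and Timp2 encode secreted inhibitors of matrix metalloproteinases. Timp1 had a normalized log2 signal of 4.74, 5.19 and 6.24 in TOL mice and 4.74, 4.96 and 5.71 in INT mice, with a log2 fold change of 0.25 (SE 0.21, adjusted p = 0.752 from limma). The highest values were those of TOL mouse 11 and INT mouse 4, and the log2 fold change was 0.06 without TOL mouse 11 and 0.38 without INT mouse 4. The second probe of Timp1 gave 0.10 and followed the first over the mice (r = 0.90). Timp2 had a log2 fold change of -0.06.

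Ccn2, a matricellular protein and a widely used target gene of TGF-beta and YAP, showed the largest average difference among the members. It had a normalized log2 signal of 7.96, 9.37 and 9.59 in TOL mice and 9.23, 9.59 and 9.89 in INT mice. TOL mice 5 and 9, at 7.96 and 8.59, were below every INT mouse, and the other 4 TOL mice were within the INT range. The log2 fold change was -0.49, or 1.40-fold lower (SE 0.23, unadjusted p = 0.052, adjusted p = 0.512 from limma), and the second probe gave -0.35 with an r of 0.94 to the first. Without TOL mouse 5 the log2 fold change of Ccn2 was -0.27. Ccn2 was not found to be related to Timp1 (r = -0.004, rho = -0.22, permutation p = 0.86 and 0.48, adjusted p = 0.86 and 0.54).

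Sparc, a calcium binding glycoprotein that helps collagen assemble outside the cell, had a normalized log2 signal of 9.55, 10.08 and 10.58 in TOL mice and 9.54, 10.28 and 11.07 in INT mice. Its log2 fold change was -0.16 (SE 0.22, adjusted p = 0.860 from limma), while both of its other tested probes gave 0.17, so no direction can be given for this gene. Fn1, fibronectin, which forms the first scaffold for collagen, had 5.04, 5.497 and 5.88 in TOL mice and 4.90, 5.36 and 6.05 in INT mice, with a log2 fold change of 0.08 (SE 0.18, adjusted p = 0.928). Mfap5, a microfibril glycoprotein, had 5.83, 6.48 and 6.97 in TOL mice and 5.70, 6.44 and 6.75 in INT mice, with a log2 fold change of 0.14 (SE 0.19, adjusted p = 0.858). In all 3 genes the ranges of the groups overlapped widely. With single mice left out, Sparc ran from -0.30 without INT mouse 3 to -0.0002 without INT mouse 4, Fn1 from -0.01 without INT mouse 3 to 0.22 without INT mouse 4, and Mfap5 from 0.008 without INT mouse 9 to 0.28 without TOL mouse 5. Eln, elastin, and Mfap4, a protein of elastic fibres, had log2 fold changes of -0.07 and -0.02.

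The matrix genes tended to be high or low together in the same mice. INT mouse 4 had the highest value of all 12 in 16 of the 28 members (57.1%), while it was the highest in 5.84% of all genes tested. INT mouse 9 had the lowest value in 11 members (39.3%), and in 8.32% of all genes. TOL mouse 11 was highest in 6 members (Col4a1, Col4a2, Mfap5, Serpinh1, Lox and Timp1), or 21.4%, and in 13.5% of all genes. These shares are descriptions and were not tested.

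**Figure D3:**
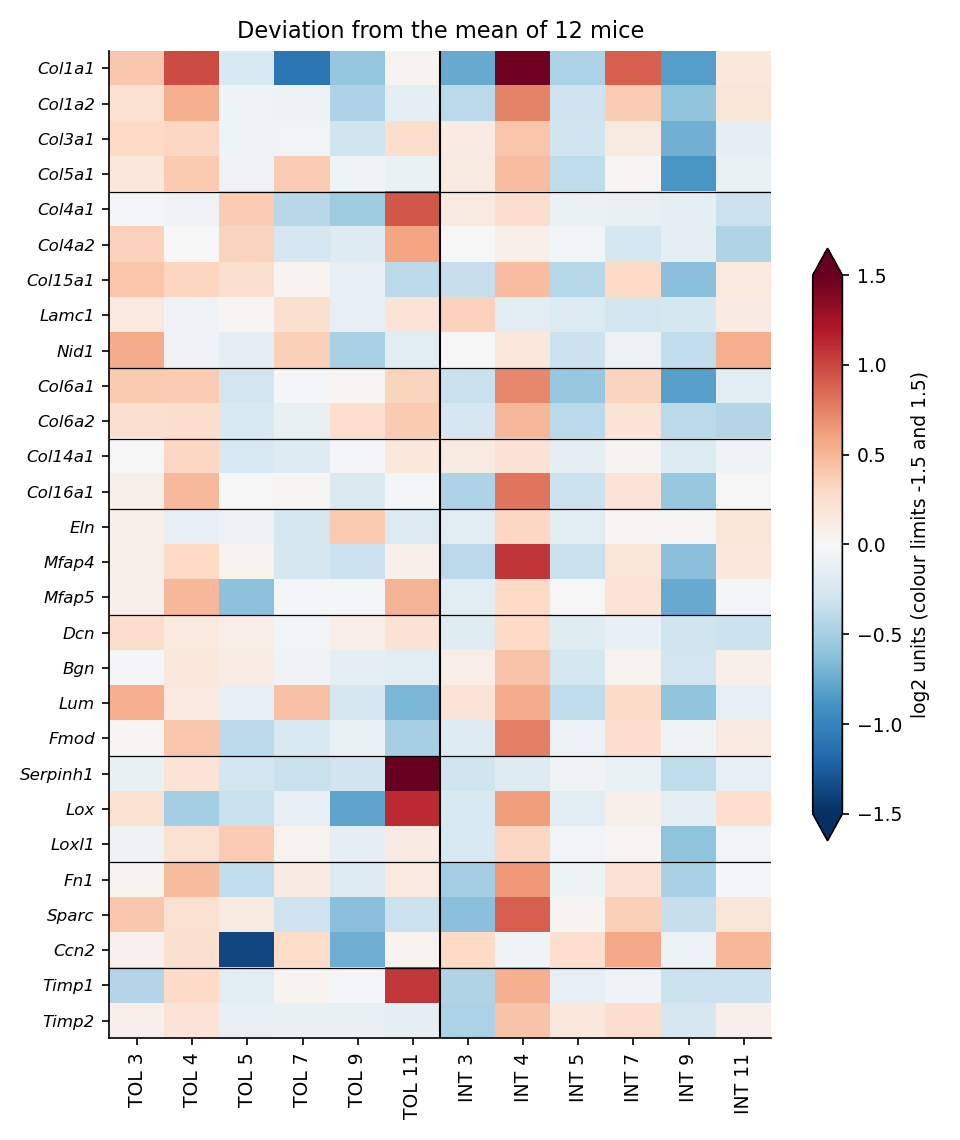
Deviation of each of the 28 matrix genes (rows, grouped by role) from its mean over the 12 mice (columns, TOL left of INT), in log2 units, with red above and blue below the mean. INT mouse 4 is red and INT mouse 9 blue in most rows, and TOL mouse 11 is red mainly in Col4a1, Col4a2, Serpinh1, Lox and Timp1.

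The fibrillar and basement membrane genes were compared by the mean deviation of each class from its gene means. The 4 fibrillar genes (Col1a1, Col1a2, Col3a1 and Col5a1) lay between -0.35 and 0.55 log2 units in TOL mice (mean 0.03, SD 0.33) and between -0.75 and 0.77 in INT mice (mean -0.03, SD 0.54). The 5 basement membrane genes (Col4a1, Col4a2, Col15a1, Lamc1 and Nid1) lay between -0.29 and 0.29 in TOL mice (mean 0.07, SD 0.21) and between -0.31 and 0.16 in INT mice (mean -0.07, SD 0.17). The difference between labels was 0.06 for the fibrillar class and 0.14 for the basement membrane class, each smaller than the spread between mice within a label (0.45 and 0.19). With single mice left out, the fibrillar difference ran from -0.08 without INT mouse 9 to 0.22 without INT mouse 4. The basement membrane difference ran from 0.09 without INT mouse 9 to 0.21 without TOL mouse 9, beside the spread of 0.19. That spread was taken over all 12 mice, TOL mouse 9 included. It describes single mice and is not the error of a difference between means. The 2 class means correlated with r = 0.63 over the 12 mice.

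Correlations were higher among the fibrillar genes than among the basement membrane genes. The 6 pairs of fibrillar genes had r between 0.48 and 0.91 with a median of 0.73, and a median of 0.77 once each label's mean was removed. The 10 pairs of basement membrane genes had r between -0.09 and 0.85 with a median of 0.11, where the highest was Col4a1 with Col4a2. Over all 378 pairs of members the median was 0.41, with 327 above 0. Col15a1 followed the fibrillar mean (r = 0.83) more than the mean of the other basement membrane genes (r = 0.19), and Col4a1, Col4a2 and Lamc1 had r of 0.26, 0.18 and -0.02 with the fibrillar mean. Col16a1, Mfap4, Col6a1 and Fn1 had r of 0.94, 0.92, 0.90 and 0.85 with it. These values share the same 12 arrays and are given with no test.

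**Figure D4:**
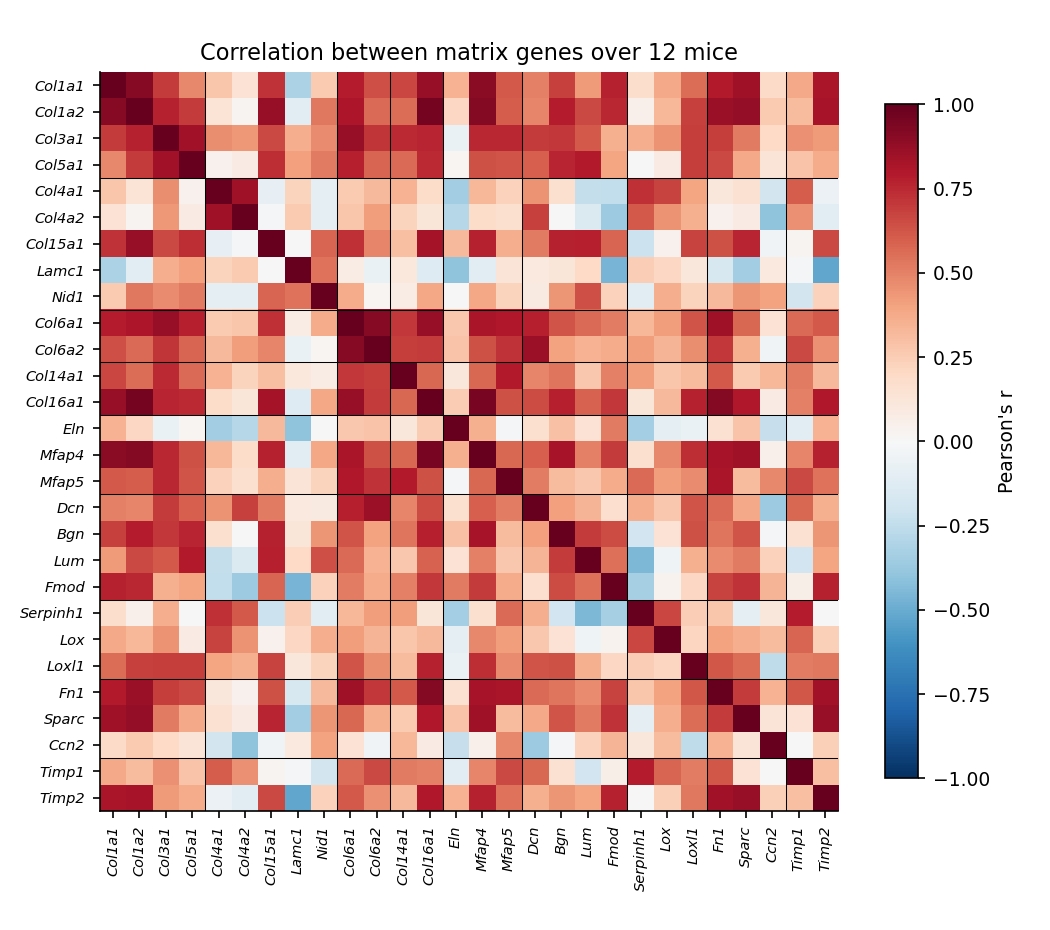
Pearson's r between each pair of the 28 matrix genes over the 12 mice, with red positive and blue negative and lines between the roles. Fibrillar collagens, type VI collagen, Col16a1, Mfap4, Fn1 and Sparc form a mostly red field, while Col4a1 and Col4a2 are red with each other, Serpinh1 and Lox.

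Of 14 pairs named by known partnership, 11 had both genes tested, and 5 were related at an adjusted p under 0.05 over these pairs by Pearson's r. Col1a1 and Col1a2, the chains of 1 molecule, had r = 0.91 and rho = 0.87 (permutation p = 8.0e-05 and 0.00040, adjusted p = 0.00044 and 0.0018), and r = 0.81 without TOL mouse 4 and INT mouse 4. Within labels r was 0.79 in TOL mice and 0.99 in INT mice (exact permutation p = 0.072 and 0.0028, where 0.0028 is the smallest that 6 mice allow). Col6a1 and Col6a2 had r = 0.91 and rho = 0.87 (permutation p = 4.0e-05 and 0.00048, adjusted p = 0.00044 and 0.0018), 0.89 without INT mice 4 and 9, and 0.86 in TOL mice and 0.92 in INT mice (exact permutation p = 0.044 and 0.031). Both chain pairs thus kept their relation without the mice farthest from the median.

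Col1a1 and Sparc had r = 0.85 and rho = 0.85 (permutation p = 0.00042 and 0.00080, adjusted p = 0.0015 and 0.0022), 0.77 without TOL mouse 4 and INT mouse 4, and 0.70 in TOL mice and 0.94 in INT mice (exact permutation p = 0.14 and 0.0056). Col1a1 and Col3a1 had r = 0.70 and rho = 0.73 (permutation p = 0.0065 and 0.0095, adjusted p = 0.014 and 0.021), 0.54 without the same mice, and 0.78 in TOL mice and 0.75 in INT mice (exact permutation p = 0.067 and 0.069). A relation was not detected between Col1a1 and Col4a1 (r = 0.28, rho = 0.40, permutation p = 0.39 and 0.20, adjusted p = 0.62 and 0.29) or between Col4a1 and Sparc (r = 0.15, rho = 0.22, permutation p = 0.64 and 0.49, adjusted p = 0.78 and 0.54). Lox and Eln, an oxidase and its substrate, had r = -0.09 and rho = 0.01 over the 12 mice (permutation p = 0.81 and 0.98, adjusted p = 0.86 and 0.98), with r = -0.52 in TOL mice and 0.95 in INT mice (exact permutation p = 0.22 and 0.0083), and the difference between labels was not tested. Without the 2 mice farthest from the median of the first gene, r was 0.24 for Col1a1 with Col4a1, 0.53 for Col4a1 with Sparc, -0.15 for Lox with Eln, 0.13 for Dcn with Lum, -0.02 for Timp1 with Ccn2 and 0.28 for Col1a1 with Serpinh1.

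The correlations of Serpinh1 with other members depended on 1 mouse. Col1a1 and Serpinh1 had r = 0.18 (permutation p = 0.58, adjusted p = 0.78) but rho = 0.68 (permutation p = 0.019, adjusted p = 0.035), and r = 0.65 without TOL mouse 11. The r of Serpinh1 with Col4a1 was 0.73 over 12 mice and 0.09 without TOL mouse 11, and with Timp1 it was 0.79 and 0.33. The r of Serpinh1 with Col1a2 was 0.05 over 12 mice and 0.62 without TOL mouse 11.

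Markers of other cells in the muscle were read in the same mice. All 8 skeletal muscle fibre markers, such as Acta1 and Ckm, were tested. Linear signals were summed over a list before taking log2, so the brightest probes weigh most. For these 8 markers that log2 sum was 16.31 to 16.42 in TOL mice and 16.29 to 16.37 in INT mice. Of these, 3 were higher and 5 lower on average in TOL mice, with 0 called. At an unadjusted p of 0.05 or less 2 were higher, against 3.89% of all genes. They were Mb and Tnnt3, with log2 fold changes of 0.25 and 0.22 (unadjusted p = 0.012 and 0.013 from limma). The 8 tested of 10 fibroblast and tenocyte markers outside the members (Thbs4 and Ly6a were not tested, and Tnc and Thbs4 also stand in a matrix list below) summed to 8.997 to 9.38 in TOL mice and 8.62 to 9.53 in INT mice, with a median log2 fold change of 0.03. By mouse, the mean deviation of these markers was highest in INT mouse 4 (0.41) and lowest in INT mouse 9 (-0.47), and it correlated with the fibrillar mean with r = 0.86. The r with the fibrillar mean was 0.73 for the 3 tested of 6 Schwann cell markers, which were also lowest in INT mouse 9, and 0.31 for the muscle fibre markers. It was 0.22 for the 5 tested of 6 smooth muscle and pericyte markers, -0.01 for the 3 tested of 6 adipocyte markers, -0.17 for the slow-twitch fibre markers and -0.22 for the 7 tested of 8 endothelium markers. The 6 tested of 7 macrophage markers, like the fibroblast and tenocyte markers, were highest in INT mouse 4 and lowest in INT mouse 9 (r = 0.41 with the fibrillar mean). With the basement membrane mean, r was -0.64 for slow-twitch fibre, 0.60 for macrophage and 0.53 for fibroblast and tenocyte markers. It was 0.34 for adipocyte, 0.25 for muscle fibre, 0.06 for Schwann cell, 0.04 for endothelium and -0.12 for smooth muscle and pericyte markers. These correlations were not tested. The muscle fibre markers Acta1, Ckm, Mylpf and Pvalb had group means of 13.66 to 13.91, near the top of the scale. Quantile normalization leaves little spread there, so the r of this list cannot be set against that of the fibroblast and tenocyte list. The macrophage markers Adgre1, Cd14, Cd163 and Csf1r and the adipocyte markers Cidec and Fabp4 were dim (group means of 4.37 to 4.82). Differences between dim signals are shrunk by the offset. The slow-twitch fibre markers, lower on average in TOL mice in 7 of 7 genes (median difference -0.76 log2 units, 0 called), were highest in INT mouse 9 (1.56) and lowest in TOL mouse 11 (-1.54). At an unadjusted p of at most 0.05, 6 of these 7 genes were lower, and so were 2 of the 5 smooth muscle and pericyte genes, of which 4 were lower on average (median difference -0.26 log2 units, 0 called), against 4.53% of all genes. The part of cell content or of the piece of muscle taken in the matrix values was not tested.

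**Figure D5:**
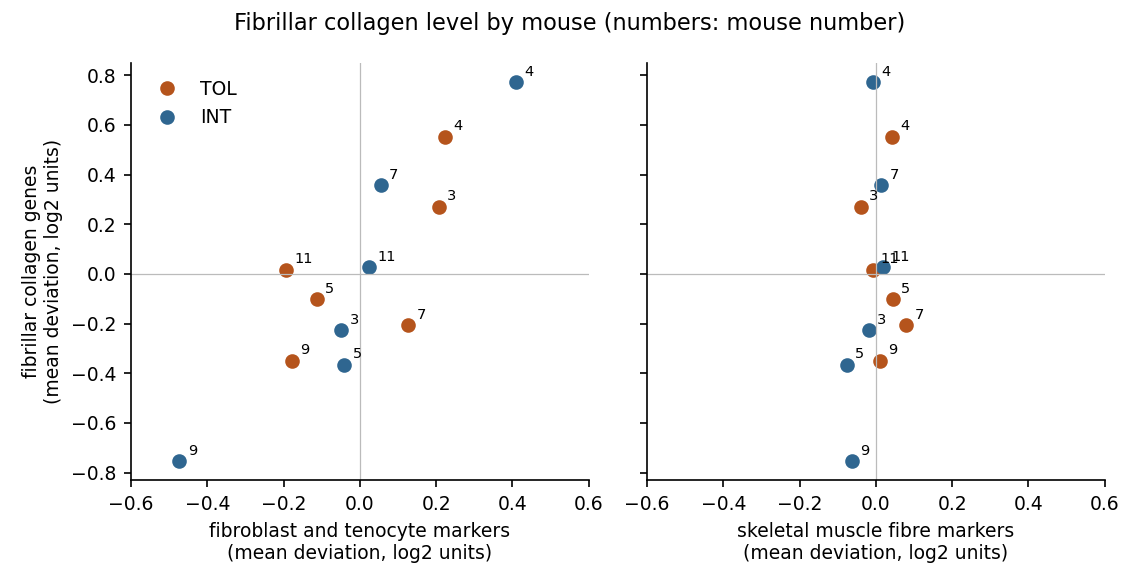
Mean deviation of the 4 fibrillar collagen genes (vertical axis, log2 units) against that of 8 fibroblast and tenocyte markers (left) and 8 skeletal muscle fibre markers (right) in each TOL and INT mouse, labelled by mouse number. The points rise to the right in the left panel (r = 0.86) and stand in a narrow column in the right panel (r = 0.31). Several fibre markers lie near the top of the scale, where normalization leaves little spread.

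The rest of the matrix pathway was read from lists of genes chosen by name. Of 80 tested genes in 6 lists of the matrix pathway, 47 were higher and 33 lower on average in TOL mice, with a median log2 fold change of 0.03. At an adjusted p under 0.05 0 were called, and at an unadjusted p of 0.05 or less 4 were higher, against 3.89% of all genes, and 3 lower, against 4.53%. Among 16 genes of TGF-beta and BMP signalling, the ligand Tgfb2 averaged 5.16 ± 0.21 in TOL mice and 4.81 ± 0.09 in INT mice (SD, n = 6 each). Its log2 fold change was 0.35 (SE 0.10, adjusted p = 0.147 from limma), and Ltbp3, which tethers latent TGF-beta to the matrix, had 0.25 (adjusted p = 0.418). Among 14 collagen processing enzymes, the lysyl hydroxylase Plod1 and Pcolce, which speeds removal of the procollagen C-propeptide, had log2 fold changes of 0.26 and 0.28 (adjusted p = 0.451 and 0.459).

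Among 19 other matrix proteins, the leucine-rich protein Prelp averaged 8.995 ± 0.37 in TOL mice and 9.40 ± 0.16 in INT mice (SD, n = 6 each). Its log2 fold change was -0.41 (SE 0.15, adjusted p = 0.330 from limma), and the fibulin Fbln1 had -0.33 (adjusted p = 0.477). In 13 integrins and other matrix receptors the smallest p belonged to Itga1, a collagen binding integrin chain, at -0.19, and Itgb5 at 0.28 (adjusted p = 0.555 and 0.599). In 9 proteases and inhibitors they were the inhibitor Timp4 at -0.24 and the protease Ctsb at 0.16 (adjusted p = 0.663 and 0.685), and in 9 other basement membrane genes the laminin chain Lama5 at -0.11 and the collagen chain Col4a5 at 0.14 (adjusted p = 0.757 and 0.765). By mouse, the 19 other matrix proteins and the 9 proteases and inhibitors were also highest in INT mouse 4 and lowest in INT mouse 9 (r = 0.87 and 0.90 with the fibrillar mean), while the collagen processing enzymes were highest in TOL mouse 11 (r = 0.12). The other basement membrane genes were highest in TOL mouse 3 and lowest in INT mouse 9 (r = 0.49). The TGF-beta and BMP genes were highest in TOL mouse 5 and lowest in INT mouse 9 (r = 0.48). The integrins and other receptors were highest in TOL mouse 5 and lowest in TOL mouse 9 (r = -0.12).

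Probes of 1 gene did not always follow each other over the mice. The 11 members with more than 1 tested probe gave 18 pairs of probes, whose r over the 12 mice had a median of 0.68 and ran from -0.16 to 0.94, and 12 of the 18 pairs had the same direction between labels. The lowest came from the discordant Dcn probe.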

How the data were processed

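The authors hybridized total RNA of each mouse to an Illumina MouseWG-6 v2 array and read the images with GenomeStudio (version not given in the sources used here). The deposited signal table holds the mean intensity of 45281 probes on a linear scale, neither background subtracted nor normalized, and the deposited detection p-value of each. A second deposited table holds background subtracted, quantile normalized intensities from an unnamed program and was used as an alternative. Groups came from the sample titles. The description field, which calls all 12 mice intolerant, was not used, and which chip each array was on was not analysed here.

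With limma 3.58.1 in R 4.3.3, the background was modelled from the detection p-values (neqc, offset 16), and arrays were quantile normalized and put on a log2 scale. The 15570 probes that 6 or more of the 12 arrays detected (p under 0.05) were fitted together with lmFit and eBayes with an intensity trend, and p-values were adjusted by the Benjamini-Hochberg method over all of them. The tested probe with the highest mean gave a gene's value. Names came from the platform annotation (34885 probes with 1 symbol, 18 with several, 10378 with none). Correlations used 100000 permutations, or all of them within a label, in scipy 1.17.1, two-sided. The fit was tested on simulated arrays of 15570 probes with independent noise. It found 94% of changes of 1 log2 unit and 100% of changes of 2. Of its calls 9.35% were false, which is above the threshold of 0.05. Both simulated sizes exceed every difference among the members, of which the largest was -0.49 (Ccn2). The simulation therefore does not show how often changes as small as those of the members are found. Promoters were taken from RefSeq by symbol, and no coordinates of probes were used. Members given in full were 14 set by name, of which 12 were tested, and the 6 other tested members with the smallest p, 18 in all, and each pathway list gave 2. The members and all lists were chosen with earlier results of these data known. Precision is limited by 6 mice per group, which are taken as separate animals from their titles.

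Alternatives were the second table, no background correction, an RMA-type background (a variant of it in limma), an offset of 50, median scaling, no detection filter, the methods' t-test, array weights, the mouse number as a block, the mean of a gene's probes, and each mouse left out.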

Additional observations from a re-analysis of the deposited data

Results flagged for a closer look

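Within groups of 6 mice, 2 of 56 sets of values (28 genes in 2 groups) held a mouse whose distance to the next was over 0.625 of the whole range, where chance alone gives about 1 in 20. Serpinh1 stood at 11.59 in TOL mouse 11, against 9.27 to 9.81 in the other TOL mice, and both of its probes were high in that mouse. Dcn stood at 11.81 in INT mouse 4, against 11.18 to 11.39 in the other INT mice. The mean correlation with the other arrays was 0.973 for TOL mouse 11, the lowest of the 12, and 0.986 for INT mouse 4.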

How the results depend on the processing

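All 22 alternatives left 0 of 28 members called at an adjusted p under 0.05, and the lowest adjusted p of any member given in full was 0.0578, for Dcn without INT mouse 4. The count of members higher in TOL mice at an unadjusted p of 0.05 or less, 1 with the settings used, was 0 with the mean of a gene's probes and 1 to 4 with single mice left out. It was 4 without INT mouse 4 (Col5a1, Col6a1, Col6a2 and Dcn), where 3.82% of all genes were higher. The count of members lower in TOL mice, 0 with the settings used, was 1 with median scaling and 1 with no filter on dim probes (Ccn2 in both), 2 with the mouse number as replicate block (Ccn2 and Fmod), and 0 to 2 with single mice left out. The mouse numbers occur in both groups. Over all tested probes, deviations of mice with the same number correlated with r between -0.007 and 0.148. In 0 of 6 numbers was the partner of the same number the closest. The fibrillar mean, however, was highest in mouse 4 (0.55 in TOL, 0.77 in INT) and lowest in mouse 9 (-0.35 and -0.75) of both groups. The basement membrane mean was lowest in mouse 9 of both groups but highest in TOL mouse 3 and INT mouse 4. Pairing of the members by number was not tested. The log2 fold change of Col1a2 was -0.0091 with no background correction and -0.0076 with an offset of 50, and that of Sparc was 0.0607 with the mean of its probes. With single mice left out, the log2 fold change ran from -0.37 to 0.12 for Col1a1, -0.12 to 0.15 for Col1a2, -0.0825 to 0.21 for Col4a1 and -0.0149 to 0.22 for Fn1. The cause of these changes was not tested. Median scaling moved the median of all genes to 0.01. Between no background correction and the RMA-type background, the log2 fold change was 0.05 and 0.33 for Col3a1, 0.03 and 0.15 for Fn1, 0.11 and 0.39 for Timp1 and 0.12 and 0.38 for Col6a2, and it was 0.40 for Col6a2 with the deposited value table and 0.09 for Timp1 with array weights.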
